A study of Mus musculus with 2 samples.

Results

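Heat shock high B cells were the cells of this colonic B cell data set with the most transcripts of 3 stress-inducible chaperone genes, Hspa1a, Hspa1b and Dnajb1, for their size. Cells of both libraries with at least 1000 transcripts (unique molecular identifiers, UMIs) and under 20% of them from immunoglobulin genes were ranked together by the share of UMIs from these 3 genes, and the top 2% were taken. This gave 156 of 7834 cells, 105 of the 4602 cells of day 14 and 51 of the 3232 cells of day 0, with 4497 (day 14) and 3181 (day 0) cells remaining. Membership was thus chosen by measured values of the 3 genes, whose levels below are a description and support nothing further.

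The day 14 library came from mice given 2% dextran sulfate sodium (DSS), a polymer that injures the colonic lining, in the drinking water for 7 days and then left to recover for 7 days. The day 0 library (ctrl) came from untreated mice, as its protocol text gives it; the treatment field of both libraries names DSS, so the day 0 entry is at odds with that text. All mice were female C57BL/6J with no transgene named in the labels. Flow cytometry was used to sort B cells out of the lamina propria of the colon, and they were sequenced with the 10x Chromium 3′ kit, version 2, as 1 library per day. The sources used here give neither the number of mice behind each library nor the sort gate. With 1 library per day there is no replicate error and no test, and every interval below is an exact 95% interval that covers counting error only.

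The heat shock response is a conserved programme of protein quality control. When unfolded proteins titrate chaperones away from the transcription factor HSF1, HSF1 trimerises and binds heat shock elements, repeats of GAA alternating in orientation with TTC, in the promoters of chaperone genes. The HSP70 proteins it induces work in a cycle with J-domain proteins, which deliver clients and start ATP hydrolysis, and with nucleotide exchange factors, which release them. B cells at rest express constitutive HSP70 and HSP90 proteins, while the inducible HSP70 genes Hspa1a and Hspa1b are nearly silent in most unstressed cells.

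Promoter sequences are shown because the ranking genes and the chaperone genes that stood highest with them carry, or lack, heat shock element letters near their start sites. They are RefSeq sequences on build GRCm38.p6 (mm10), printed 5′ to 3′ on the gene's own strand, with capitals for matches to GAANNTTC or TTCNNGAA, overlapping matches merged. All 250 bases before each start site in the RefSeq table were searched on both strands. The 88 bases shown for Hspa1a (chr17:34972213-34972300, minus strand) and Hspa1b (chr17:34959295-34959382, minus strand) run from 144 to 57 bases before the start, and the same letters stand in both.
Hspa1a: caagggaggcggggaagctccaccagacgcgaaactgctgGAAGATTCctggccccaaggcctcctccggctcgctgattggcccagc
Hspa1b: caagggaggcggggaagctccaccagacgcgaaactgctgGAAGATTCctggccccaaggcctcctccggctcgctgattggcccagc
Hsph1 (chr5:149636356-149636375, minus strand): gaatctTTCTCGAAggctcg
Hspb1 (chr5:135887796-135887835, plus strand): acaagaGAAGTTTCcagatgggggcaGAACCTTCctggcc
Dnaja1 (chr4:40722338-40722357, plus strand): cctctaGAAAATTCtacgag
Hspe1 (chr1:55088053-55088082, plus strand): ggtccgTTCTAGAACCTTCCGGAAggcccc
Hspd1 (the same bases, minus strand): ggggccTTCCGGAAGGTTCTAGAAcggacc
Jun (chr4:95052337-95052356, minus strand): agagaaGAATCTTCtagggt

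Hspd1 and Hspe1, which encode the mitochondrial chaperonin and its lid, share 1 stretch between their divergent starts that holds 3-unit elements in both frames (GAANNTTCNNGAA and TTCNNGAANNTTC). The Dnajb1 windows held neither form of these letters, nor did those searched for Chordc1, Ahsa1, Stip1, Cacybp, Bag3, Ubb, Fos, Gadd45g and Klf4, so the printed set is the genes with a match. Hspa8, Hsp90aa1, Hsp90ab1 and Pmaip1 had no entry. The 3-unit form was present before 139 of the 27025 genes in the promoter table (0.514%) and before 14 of the 2408 tested genes with an entry (0.581%). The shorter form stood before 14.5% of all genes and 13.2% of tested genes, so a single match is common. On the immediate early list, which holds Jun, 1 of the 18 tested genes with an entry held it (5.56%). Of the 12 chaperone genes that were higher in heat shock high cells on both days, as described below, 8 had an entry, of which 4 held the shorter form and 2, Hspd1 and Hspe1, the 3-unit form. These 2 are also among the 4, through their 1 shared stretch. Among the other genes higher on both days 7 of 58 with an entry held the shorter form (12.1%), and among genes lower on both days 7 of 30 (23.3%). A match is a run of letters and was not tested for binding.

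Hspa1a gave most of the ranking UMIs. It had 4825 CPM (UMIs per 1000000 UMIs, with immunoglobulin and mitochondrially encoded genes left out of the total; 1213 UMIs) in heat shock high cells of day 14 against 9.30 CPM in the remaining cells, and 4111 CPM (562 UMIs) against 9.93 CPM at day 0. Hspa1b stood at 529 CPM against 2.98 CPM at day 14 and at 461 CPM against 2.58 CPM at day 0. Dnajb1, the J-domain partner of inducible HSP70, had 1511 CPM against 55.5 CPM at day 14 and 2012 CPM against 56.4 CPM at day 0. Hspa1a supplied 67.6% of the UMIs of the 3 genes in the 156 cells, Dnajb1 24.9% and Hspa1b 7.46%. All 3 genes were detected together in 61 cells, 19 cells qualified by Dnajb1 alone and 31 had no Dnajb1.

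Hspa1a (1213 and 562 UMIs) and Hspa1b (133 and 63 UMIs) kept nearly the same ratio on both days, 9.12 at day 14 and 8.92 at day 0. They are neighbours on chromosome 17 (Hspa1a at 34969190 to 34972156, Hspa1b at 34956436 to 34959238, GRCm38, minus strand), and their coding sequences were identical at 1915 of 1926 aligned bases (99.4%). The stretch from the stop codon to the 3′ end, where a 3′ kit reads, was identical at 394 of 816 aligned positions (48.3%). The sources used here do not say how reads were divided where the copies match, so the split between the pair is uncertain while their sum is less affected.

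The signal ranged widely among the 156 cells. Their UMIs of the 3 genes ran from 2 to 122, with a median of 10 at day 14 and 7 at day 0. As a share of the cell's UMIs, the maximum was 340.5 per 10000 at day 14 and 258 per 10000 at day 0. The last cell inside the limit had 2 UMIs of 1712 (11.68 per 10000) and the first cell outside had 2 of 1716 (11.66 per 10000), so at the boundary membership turned on total depth. At day 14, 54 cells had 10 or more UMIs of the 3 genes, 32 had 4 to 9 and 19 had 2 to 3; at day 0 these were 20, 26 and 5. The 10 highest cells held 28.1% of all UMIs of the 3 genes in the day 14 cells and 62.6% in the day 0 cells.

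**Figure D1:**
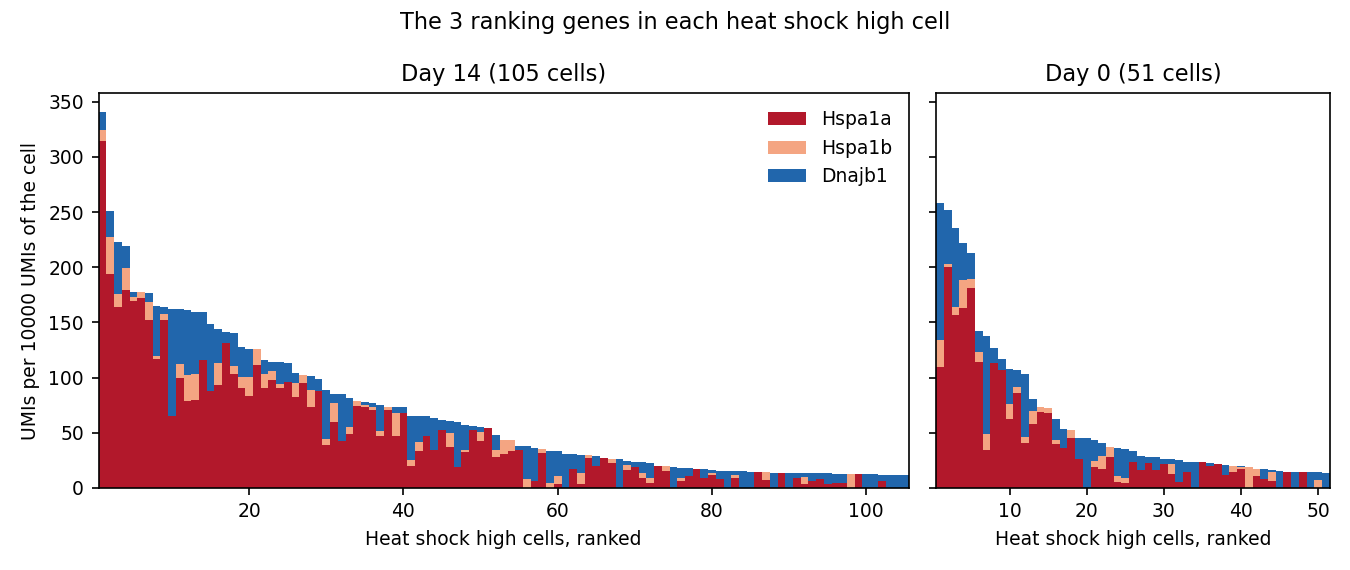
Each bar is 1 heat shock high cell, with its UMIs of Hspa1a, Hspa1b and Dnajb1 stacked per 10000 UMIs of the cell (vertical axis), ranked within day 14 (left, 105 cells) and day 0 (right, 51 cells). Hspa1a fills most of the tall bars, and both panels fall to about 11.7 per 10000 or just above it at the right.

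The 105 cells were 2.28% of the day 14 cells (Clopper-Pearson interval 1.87 to 2.76) and the 51 cells were 1.58% of the day 0 cells (1.18 to 2.07). The ratio of the shares, day 14 over day 0, was 1.45 (1.03 to 2.06). When cells were thinned to 1000 UMIs before ranking, the shares were 2.15% and 1.76% and their ratio was 1.22 (0.872 to 1.72), and with Dnajb1 left out of the ranking the ratio was 1.36 (0.971 to 1.94), so under both the interval included 1. It was 1.79 (1.07 to 3.07) for the top 1% of cells and 1.36 (1.10 to 1.69) for the top 5%. Leaving out large cells gave 1.45 (1.02 to 2.09), cells with high mitochondrial shares 1.44 (1.02 to 2.07), and cells with 5 or more plasma marker UMIs 1.46 (1.04 to 2.09). Cells with 10 or more UMIs of the 3 genes made up 1.17% of day 14 cells (0.883 to 1.53) and 0.619% of day 0 cells (0.378 to 0.954). After thinning these shares were 0.608% and 0.433%, with overlapping intervals. Cells with at least 1 such UMI were 16.1% at day 14 and 15.5% at day 0, and 7.91% and 8.20% after thinning, with overlapping intervals. No cell class in these sorted cells is known to lack Dnajb1, so a background share from free RNA could not be set.

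Heat shock high cells were of ordinary size and carried B cell transcripts. The median UMI count was 2309 in heat shock high cells and 2246 in remaining cells at day 14, and 2237 and 2282 at day 0. The median mitochondrial share was 3.05% against 3.38% at day 14 and 2.81% against 3.13% at day 0. At least 2 UMIs of the B cell markers Cd79a, Cd79b, Ms4a1, Cd22 and Pax5 were found in 103 of the 105 day 14 cells, against 98.4% of the remaining cells, and in 50 of 51 day 0 cells, against 98.5%. Cd79a, a signalling chain of the B cell receptor, had 2303 CPM in heat shock high and 2248 CPM in remaining cells at day 14, and 1595 CPM and 2207 CPM at day 0. Defining markers of T cells (Cd3e, Trac), NK cells (Nkg7, Ncr1), neutrophils (S100a8, S100a9) and red cells (Hba-a1, Hbb-bs) were at 0 UMIs in the heat shock high cells of both days. Stromal and endothelial markers summed to 20 UMIs (day 14) and 7 UMIs (day 0), 1.60 times (0.972 to 2.50) and 0.844 times (0.338 to 1.75) the level of the remaining cells. Epithelial markers had 3 and 2 UMIs, myeloid markers 0 and 1, and the T cell list 1 and 0. The B cell label thus fitted these markers. Malat1, a nuclear RNA, took a median of 4.49% of UMIs in heat shock high and 3.98% in remaining cells at day 14, and 4.15% and 4.26% at day 0. Genes detected after thinning to 1000 UMIs numbered 481 and 483 at day 14, and 493 and 496 at day 0 (medians). The part of these small differences in the results below was not tested.

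A pair of day 0 members stood apart. One had 11826 UMIs, 19.4% of them immunoglobulin, with 122 UMIs of the ranking genes and 220 of 7 plasma cell markers such as Jchain and Xbp1. The other had 12883 UMIs, 25 of the ranking genes and 17 of plasma markers, but only 0.442% immunoglobulin. The median of the remaining day 0 cells was 1.02%. This second cell thus passed the limit of 5 plasma marker UMIs, which takes no account of depth, with little immunoglobulin. Of the B cell markers named above the first cell had 18 UMIs and the second 26. Together they held 17.1% of the UMIs of the 51 day 0 cells, 67.8% of the Hspb1 UMIs, 97.0% of the Jchain UMIs and all UMIs of Ly6c2 and Mt1. No day 14 member had 5 or more plasma marker UMIs. The 7 plasma markers summed to 183 CPM in heat shock high and 253 CPM in remaining cells at day 14, and to 1917 CPM and 321 CPM at day 0, and Prdm1 was at 0 in the members of both days. Germinal center markers (Rgs13, Mef2b, Basp1, Bcl6 and S1pr2) had 9 UMIs in the day 14 members and 40 in the day 0 members, 16 of these in the pair. Their summed ratio was 0.959 (0.436 to 1.84) at day 14 and 3.61 (2.56 to 4.97) at day 0, where it was 4.23 (2.67 to 6.39) without plasma marker cells and 0.878 when only the top 1% of cells were taken. At least 2 of these UMIs were found in 0% of heat shock high and 0.867% of remaining cells at day 14, and in 13.7% and 2.36% at day 0. The part of these markers in the day 0 results was not tested. Day 0 results below that rest on the pair are given with its share of the UMIs or with the value without such cells. Across the libraries, 17 barcodes were shared, of which 2 belonged to heat shock high cells.

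Chaperone genes that the ranking did not use were higher in the same cells on both days. Of 79 listed cytosolic and mitochondrial chaperones and cochaperones, 47 passed the level filter (an expected count of at least 5 UMIs in the heat shock high cells of each library). Higher on both days, meaning a ratio of at least 1.5 with its interval above 1 in each library, were 12 of the 47, and 0 of the 47 were lower on both days. The background was 86 of 3015 tested genes higher (2.85%) and 37 lower (1.23%). Summed over the list, chaperone UMIs stood at 19638 CPM in heat shock high and 9001 CPM in remaining cells of day 14, a ratio of 2.18 (2.12 to 2.24). At day 0 the sums were 28346 CPM and 9328 CPM, a ratio of 3.04 (2.94 to 3.14). The median log2 ratio over the 47 genes was 0.09 at day 14 and 0.49 at day 0, beside -0.13 and -0.07 over all tested genes. By single day, 12 of the 47 were higher and 3 lower at day 14, and 20 were higher and 0 lower at day 0. The day 14 sum was thus carried by a minority of abundant members, while at day 0 the median member was raised as well.

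Hsph1, the HSP110 protein that acts as nucleotide exchange factor for HSP70, had 366 CPM (interval 295 to 449) in heat shock high cells of day 14 and 36.6 CPM in the remaining cells. At day 0 it had 651 CPM (523 to 801) and 57.8 CPM. The ratios were 10.0 (7.89 to 12.6) and 11.3 (8.87 to 14.2), and they differed by less than their intervals. Dnaja1, a J-domain protein that serves constitutive HSP70, had 1627 CPM in heat shock high and 186 CPM in remaining cells at day 14, and 2985 CPM and 216 CPM at day 0. Its ratio was 8.76 (7.86 to 9.75) at day 14 and 13.8 (12.3 to 15.4) at day 0. Hspa8, the constitutive HSP70, had 3592 CPM against 1092 CPM at day 14 and 5918 CPM against 1023 CPM at day 0, or 3.29-fold (3.07 to 3.52) and 5.79-fold (5.38 to 6.22). St13, which links HSP70 to HSP90, rose by less, with ratios of 1.51 (1.15 to 1.93) and 1.75 (1.24 to 2.39).

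Dnajb1 could be read apart from the ranking when cells were ranked by Hspa1a and Hspa1b alone, which kept the size of the group. Under that ranking Dnajb1 stood at 1289 CPM in the selected cells and 60.9 CPM in the rest at day 14, a ratio of 21.2 (18.5 to 24.2). At day 0 it stood at 1721 CPM and 61.2 CPM, a ratio of 28.1 (24.0 to 33.0). Dnajb1 was thus raised in cells picked only for the inducible HSP70 genes.

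Hspb1, a small heat shock protein that holds unfolded clients, was below the level filter and rested on few cells. It had 32 UMIs in the day 14 heat shock high cells (127 CPM against 3.88 CPM in remaining cells) and 87 UMIs in the day 0 cells (636 CPM against 6.06 CPM). Its ratio was 32.8 (20.1 to 53) at day 14 and 105 (72.8 to 153) at day 0, where 59 of the UMIs lay in the plasma marker cell with 122 ranking UMIs. Without plasma marker cells the day 0 ratio was 48.9, and without large cells it was 35.4. After thinning, Hspb1 was detected in 9.52% of heat shock high and 0.200% of remaining day 14 cells (12.4% and 0.467% before thinning). Bag3, another exchange factor, had 1 UMI in the members of each day, too few for a ratio.

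HSP90 and its helpers moved with HSP70. Of 12 measured genes on that list 6 were higher on both days and 0 lower, beside 2.85% and 1.23% of all tested genes. Hsp90aa1, the stress-inducible cytosolic HSP90, had 3023 CPM in heat shock high and 454 CPM in remaining cells at day 14, and 3606 CPM and 576 CPM at day 0. Its ratios of 6.66 (6.17 to 7.19) and 6.27 (5.70 to 6.88) had overlapping intervals. Hsp90ab1, the constitutive form, had 3269.6 CPM against 1361 CPM and 3840.5 CPM against 1399.9 CPM, or 2.40-fold (2.24 to 2.58) and 2.74-fold (2.51 to 2.99). The inducible form therefore had the larger ratio on both days. The other 4 were cochaperones: Ahsa1, which speeds HSP90's ATPase, at 3.63-fold and 2.88-fold, Cacybp at 2.76-fold and 3.77-fold, Chordc1 at 2.83-fold and 5.50-fold, and Stip1, which joins HSP70 to HSP90, at 3.38-fold and 3.07-fold (day 14 and day 0 in each). Stip1 was named after its values were seen.

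Of 4 measured mitochondrial genes the chaperonin pair was higher on both days and 0 were lower on both. Over all tested genes these shares were 2.85% and 1.23%. Hspe1 had 1388 CPM in heat shock high and 511 CPM in remaining cells at day 14, and 2289.7 CPM and 549 CPM at day 0, with ratios of 2.72 (2.43 to 3.03) and 4.17 (3.71 to 4.68). Hspd1, its divergent neighbour, had 553 CPM against 159 CPM and 988 CPM against 175 CPM, with ratios of 3.47 (2.90 to 4.13) and 5.63 (4.68 to 6.72). Both genes stood further above the remaining cells at day 0 than at day 14. Hspa9, the mitochondrial HSP70, had ratios of 0.985 (0.657 to 1.42) and 0.913 (0.520 to 1.49), and Grpel1, its exchange factor, was lower at day 14 (0.434, 0.198 to 0.827) with a ratio of 0.795 (0.395 to 1.43) at day 0. The cytosolic chaperonin TRiC and prefoldin, which fold actin and tubulin, had 0 of 13 measured genes higher on both days, with summed ratios of 0.955 (0.878 to 1.04) at day 14 and 1.35 (1.23 to 1.49) at day 0. At the 2.85% of all tested genes, 0 of 13 higher on both days is no departure. Taken singly, day 14 had 0 of the 13 higher and day 0 had 6. The day 0 sum without plasma marker cells was 1.33 (1.20 to 1.48). Hsf1, whose product drives the response, had 7 UMIs in the members of each day, with ratios of 0.854 (0.341 to 1.78) and 1.19 (0.476 to 2.48) and intervals on both sides of 1.

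**Figure D2:**
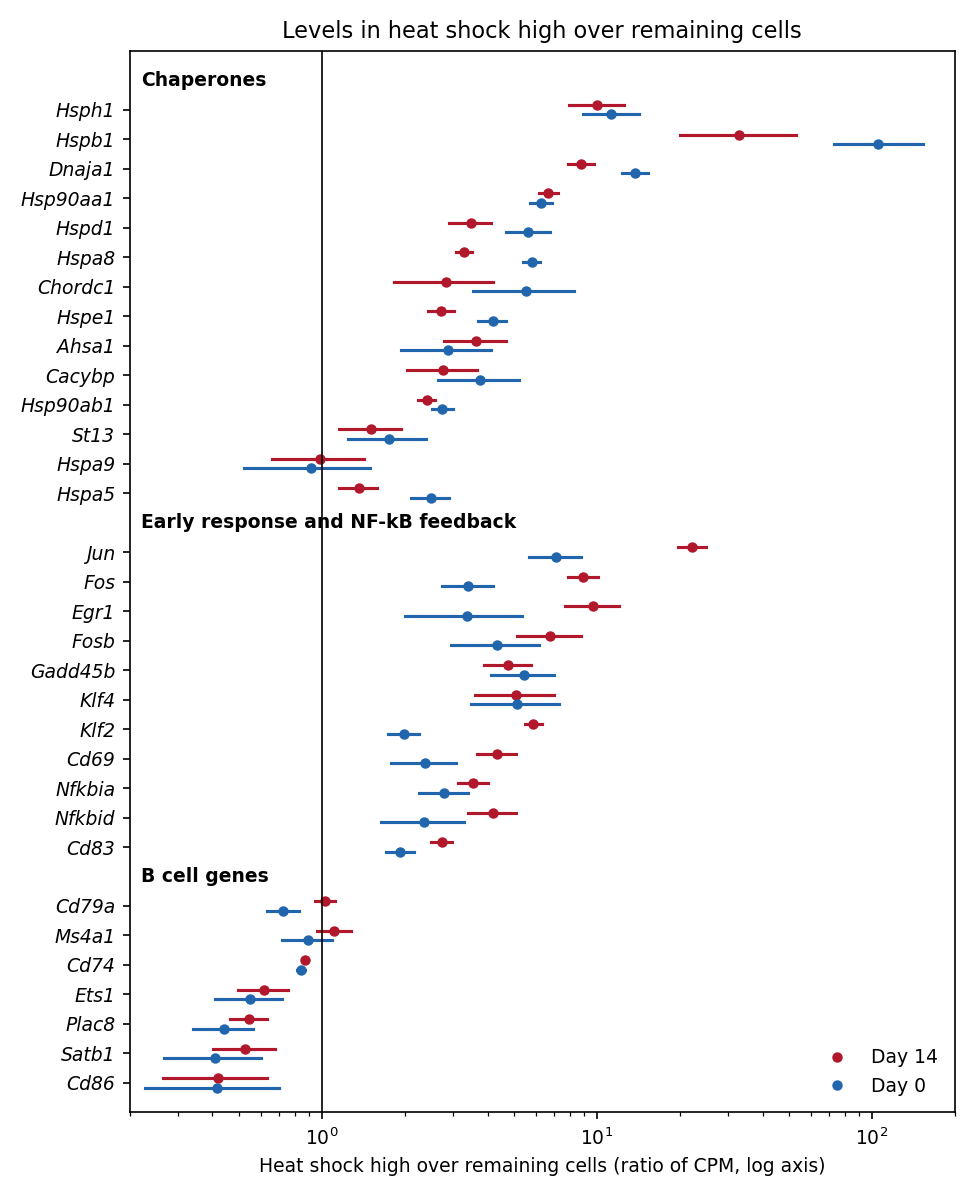
Points are ratios of CPM in heat shock high over remaining cells of the same day (horizontal log axis) for day 14 (red) and day 0 (blue), and bars are exact 95% intervals of counting error. Most of the chaperones drawn lie right of 1 on both days, Jun lies further right at day 14, and the B cell genes drawn lie near or left of 1. The genes drawn are a selection. Of the 47 measured chaperones 12 were higher on both days, and Cr2, Spib and Ciita, which stood above 1 at day 14, are not drawn.

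Within the group, chaperone levels followed the strength of the ranking signal. Cells with 0 UMIs of the 3 genes had a summed chaperone level of 8729 CPM at day 14, cells with 1 or more that were not members had 10347 CPM, and members with 4 to 9 and with 10 or more UMIs had 15259 CPM and 23286 CPM. The same bins held 9028, 10855, 20342 and 37811 CPM at day 0. Members with 2 to 3 UMIs, 19 cells at day 14 and 5 at day 0, had 14138 CPM and 14204 CPM, in the same order, though these bins are thinly filled. Over cells with 0 UMIs the highest bin stood 2.67-fold higher (2.58 to 2.76) at day 14 and 4.19-fold higher (4.02 to 4.36) at day 0. Hsph1 had 431 CPM and 805 CPM in the highest bin, against 30.8 CPM and 50.2 CPM in cells with 0 UMIs (day 14 and day 0 in each).

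**Figure D3:**
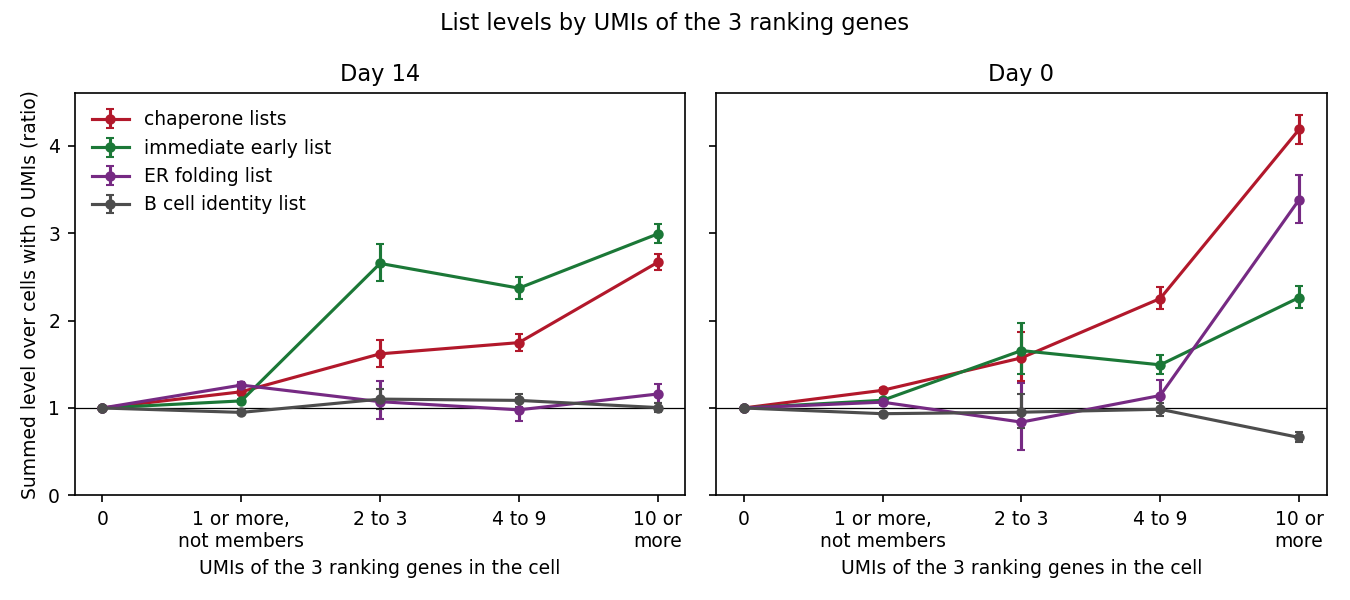
Summed level of 4 gene lists over the level in cells with 0 UMIs of the ranking genes (vertical axis), by UMIs of those genes in the cell from low to high (horizontal axis), at day 14 (left) and day 0 (right), with 95% intervals of counting error. The chaperone line reaches 2.67 at day 14 and 4.19 at day 0, and the day 0 rise of the ER folding line to 3.38 in the highest bin includes the plasma marker cells.

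Cell by cell, the other chaperones set most members apart from the rest. The median cell had 175 chaperone UMIs per 10000 in heat shock high cells and 79.2 in remaining cells at day 14, and 202 and 81.2 at day 0. Above the 95th percentile of the remaining cells of the same day lay 72 of 105 members at day 14 (68.6%, 58.8 to 77.3) and 39 of 51 at day 0 (76.5%, 62.5 to 87.2), where 5% of remaining cells lie by construction. With 10 or more ranking UMIs these counts were 47 of 54 at day 14 and 20 of 20 at day 0, and with 2 to 9 they were 25 of 51 and 19 of 31. The ranges overlapped, since the lowest member had 52.8 per 10000 at day 14 and 55.5 at day 0. Of the 156 cells with the most chaperone UMIs per UMI, 79 were heat shock high cells (50.6% of each set).

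**Figure D4:**
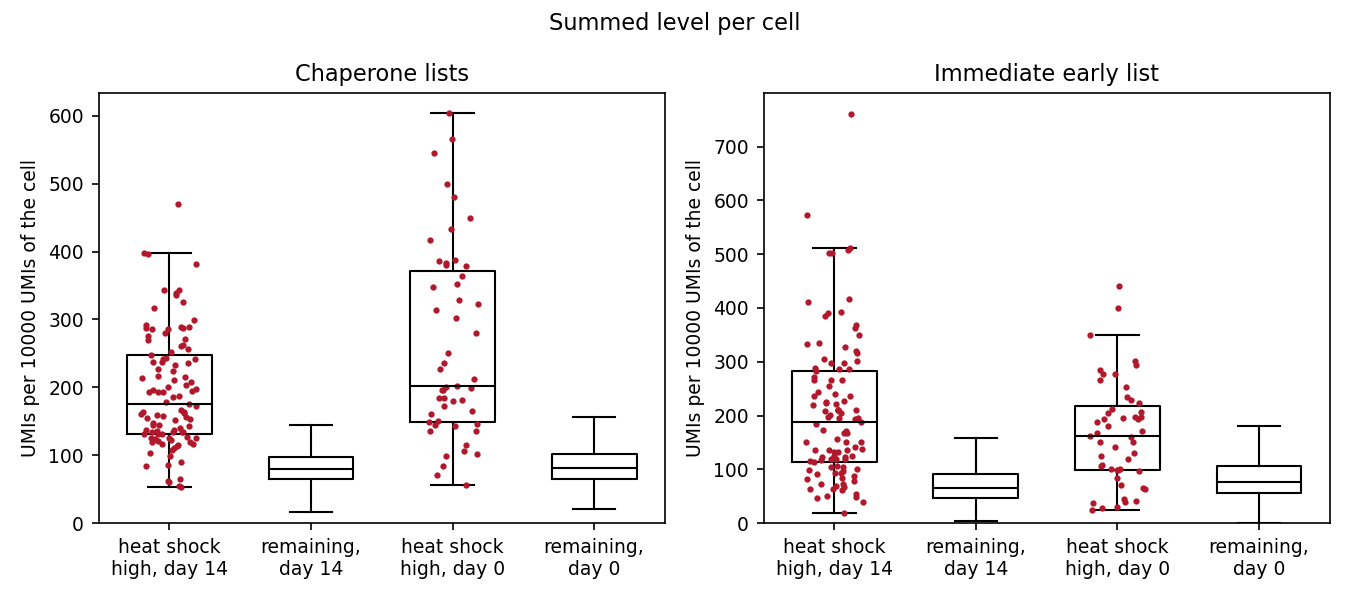
UMIs per 10000 UMIs of the cell for the chaperone lists (left) and the immediate early list (right), with a dot for each heat shock high cell and boxes for the quartiles (whiskers to 1.5 times the box height; remaining cells beyond them not drawn). Medians of the heat shock high cells lie at 175 (day 14) and 202 (day 0) for chaperones and at 188 and 163 for immediate early genes, above the remaining cells in each panel.

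Immediate early genes, the transcription factors and feedback regulators that cells switch on within minutes of a stimulus, were higher on both days as well. Of 22 measured members 16 were higher on both days and 0 lower, beside 2.85% and 1.23% of all tested genes. The list summed to 20023 CPM in heat shock high and 7361 CPM in remaining cells at day 14 (2.72-fold, 2.64 to 2.80). At day 0 it summed to 16079 CPM and 8696 CPM (1.85-fold, 1.77 to 1.93). Its median log2 ratio was 1.68 at day 14 and 1.07 at day 0. Above the 95th percentile of the remaining cells lay 59 of 105 members at day 14 (56.2%, 46.2 to 65.9) and 25 of 51 at day 0 (49.0%, 34.8 to 63.4), and on both days these intervals overlapped those of the chaperones. Of the 156 cells with the highest immediate early share, 53 were heat shock high (34.0% of each set).

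Jun, a subunit of the AP-1 transcription factor, had 1794 CPM (interval 1632 to 1967) in heat shock high and 80.9 CPM in remaining cells at day 14. At day 0 it had 702 CPM (569 to 858) and 99.0 CPM. Its ratio was 22.2 (19.7 to 24.8) at day 14 and 7.10 (5.68 to 8.78) at day 0, intervals that do not overlap. After thinning, Jun was detected in 53.3% of heat shock high and 6.38% of remaining day 14 cells (69.5% and 13.9% before thinning). Fos, its AP-1 partner, had 1229 CPM against 138 CPM at day 14 and 688 CPM against 202 CPM at day 0, or 8.93-fold (7.88 to 10.1) and 3.40-fold (2.73 to 4.19). Egr1, a zinc finger factor induced by receptor signalling, had ratios of 9.66 (7.67 to 12.1) and 3.37 (2.00 to 5.34). Fosb at 6.73-fold and 4.32-fold, Klf4, which restrains B cell proliferation, at 5.06-fold and 5.10-fold, and Gadd45b, a stress and NF-κB target, at 4.74-fold and 5.42-fold had overlapping intervals on the 2 days.

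Jun followed the strength of the ranking signal only in part. At day 14 its level was 74.4 CPM in cells with 0 UMIs of the ranking genes, 113 CPM in non-members with 1 or more, 834 CPM in members with 4 to 9 UMIs and 2479 CPM in members with 10 or more. The thinly filled bin of 2 to 3 UMIs, 19 cells, stood at 1097 CPM (764 to 1526). That interval overlapped the one of the bin of 4 to 9 UMIs (644 to 1063). At day 0 Jun had 91.7 CPM in cells with 0 UMIs and 136 CPM in non-members with 1 or more. Members with 4 to 9 and with 10 or more UMIs had 405 and 1063 CPM at day 0. The day 0 bin of 2 to 3 UMIs, 5 cells, held 1 Jun UMI (109 CPM). The whole immediate early list had 19279, 17223 (16314 to 18170) and 21732 CPM (20971 to 22514) from the lowest member bin to the highest at day 14, against 7850 CPM in non-members with 1 or more UMIs. At day 0 these member bins held 14204, 12805 and 19407 CPM, against 9324 CPM. The highest bin stood above the middle one on both days, and the lowest lay between them.

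**Figure D5:**
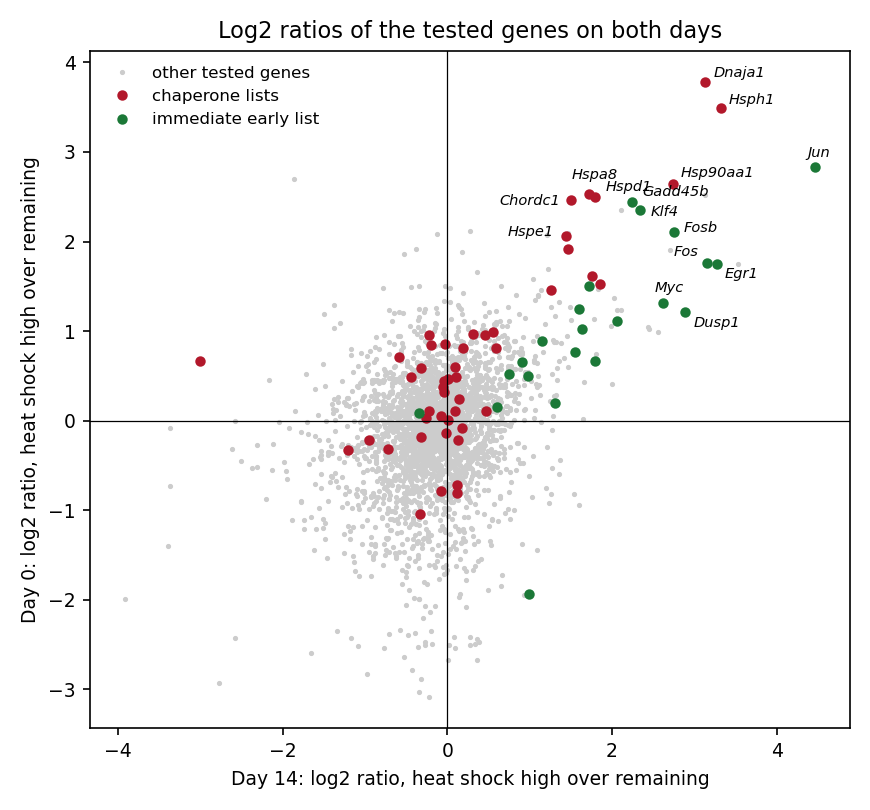
Each point is a tested gene with UMIs in the heat shock high cells of both days, by its log2 ratio of heat shock high over remaining cells at day 14 (horizontal) and day 0 (vertical). Chaperones (red) lead toward higher day 0 values, with Dnaja1 and Hsph1 at the top, and immediate early genes (green) lead toward higher day 14 values, with Jun at the far right.

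Several genes outside these lists were also called on both days. Gadd45g, a growth arrest gene, had ratios of 8.74 (6.42 to 11.7) at day 14 and 5.75 (3.75 to 8.50) at day 0. Pmaip1, which encodes the pro-apoptotic BH3 protein NOXA, had 4.31 (3.10 to 5.86) and 5.10 (3.50 to 7.22), while Bcl2l11, which encodes the BH3 protein BIM, was lower at 0.440 (0.226 to 0.771) and 0.401 (0.147 to 0.877). These were the only members called on both days among 7 measured genes of the apoptosis and p53 list. Of 37 measured ubiquitin and proteasome genes 2 were higher and 1 lower on both days. That list summed to 1.41-fold on both days, with median log2 ratios of -0.21 at day 14 and 0.03 at day 0. Ubb, which supplies free ubiquitin under stress, was higher on both days (1.81-fold at day 14 and 1.71-fold at day 0). The proteasome subunit Psma1 was lower at 0.644 (0.463 to 0.873) and 0.494 (0.292 to 0.783). Hist1h2bc, a histone gene, stood at 11.6-fold (9.04 to 14.7) at day 14 and 3.36-fold (2.06 to 5.22) at day 0.

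NF-κB feedback genes rose in part, 6 of 13 measured being higher on both days and 0 lower, beside 2.85% and 1.23% of all tested genes. Nfkbia, the inhibitor IκBα, had 1042 CPM in heat shock high and 294 CPM in remaining cells at day 14 (3.55-fold, 3.12 to 4.02), and 753 CPM and 271 CPM at day 0 (2.78-fold, 2.26 to 3.39). Nfkbid, another IκB family member, stood at 4.18-fold and 2.36-fold, Tnfaip3, which encodes the deubiquitinase A20, at 2.81-fold and 2.41-fold, and the activation marker Cd83 at 2.73-fold and 1.93-fold. Rel, the abundant NF-κB subunit of B cells, had ratios of 0.993 (0.869 to 1.13) and 0.957 (0.799 to 1.14).

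Among 18 homing and quiescence genes, 4 were higher on both days and 0 lower, beside 2.85% and 1.23% of all tested genes. Klf2, which maintains quiescence and controls lymphocyte trafficking, had 3496 CPM in heat shock high and 595 CPM in remaining cells at day 14, and 1748 CPM and 880.0 CPM at day 0. Its ratio was 5.87 (5.47 to 6.30) at day 14 and 1.99 (1.74 to 2.26) at day 0. Cd69, which retains lymphocytes in tissue, stood at 4.33-fold (3.67 to 5.07) and 2.36-fold (1.78 to 3.08), and Gpr183, an oxysterol receptor that guides B cells, at 3.98-fold (3.21 to 4.89) and 2.07-fold (1.39 to 2.98). The list summed to 2.56-fold (2.44 to 2.68) at day 14 and 1.28-fold (1.18 to 1.39) at day 0. Its median log2 ratio was 0.47 at day 14 and 0.09 at day 0, beside -0.13 and -0.07 over all tested genes. By single day, 8 of the 18 were higher and 0 lower at day 14, and 4 were higher and 1 lower at day 0. The day 0 sum was thus carried by a minority of members, the abundant Klf2 among them.

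The endoplasmic reticulum folding genes, a separate stress programme, stayed near the remaining cells as a list at day 14. For the counts in this paragraph, the share over all tested genes was 2.85% higher on both days. Of 17 measured members 3 were higher on both days: Dnajb9 (2.34-fold and 3.24-fold at day 14 and day 0), Herpud1 (2.06-fold and 2.99-fold, or 1.87-fold at day 0 without plasma marker cells) and Xbp1 (1.82-fold and 2.28-fold). Xbp1 at day 0 stood at 0.398 without plasma marker cells, which held 18 of its 21 UMIs. The list summed to 1.05-fold (0.973 to 1.12) at day 14 and 2.18-fold (2.03 to 2.33) at day 0, and without plasma marker cells the day 0 value was 1.13. Hspa5, the HSP70 of this compartment, had ratios of 1.36 (1.16 to 1.59) and 2.49 (2.11 to 2.91), with 48.8% of its day 0 UMIs in the plasma marker pair and a ratio of 1.496 without such cells. Of 8 measured genes of the integrated stress response 2 were higher on both days; Ppp1r15a, a phosphatase subunit that restarts translation, stood at 3.51-fold and 1.67-fold, while Atf4 stood at 1.84-fold (1.51 to 2.22) and 1.498-fold (1.15 to 1.92), under the limit at day 0.

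Over all tested genes 2.85% were higher and 1.23% lower on both days, so short lists have few calls or none at that share. The interferon γ list, 8 genes measured, had 0 called on both days. Its summed ratios were 1.03 (0.932 to 1.14) and 1.14 (0.959 to 1.34). Of 4 measured type I interferon genes 1, Ifi203, was higher on both days. Ribosomal protein genes had 0 of 83 called in either direction, with summed ratios of 0.941 and 0.908. Oxidative and metal stress genes had 0 of 6 called; Prdx1 stood at 0.658 (0.522 to 0.819) and 1.08 (0.836 to 1.38), and Fth1, the ferritin heavy chain, at 0.812 (0.756 to 0.872) and 0.811 (0.739 to 0.888).

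Few B cell identity genes were past the limit on both days, as among all tested genes (2.85% higher and 1.23% lower). At these shares lists of this size have few calls or none. The counts in this paragraph therefore do not set B cell identity or antigen presentation genes apart. Of 27 measured genes of B cell receptor signalling and B cell transcription 0 were higher on both days and 1 was lower, Ets1, a transcription factor that holds B cells back from plasma cell differentiation. The list summed to 1.05 (1.01 to 1.09) at day 14 and 0.837 (0.791 to 0.884) at day 0, where the value without plasma marker cells was 0.932. Ets1 had 369.9 CPM in heat shock high and 603 CPM in remaining cells at day 14 (0.614, 0.495 to 0.753), and 388 CPM and 711 CPM at day 0 (0.546, 0.408 to 0.715). On single days 4 of the 27 were higher and 1 lower at day 14, and 0 were higher and 3 lower at day 0. Cr2, the complement receptor CD21, had ratios of 2.18 (1.64 to 2.85) at day 14 and 1.22 (0.678 to 2.02) at day 0, and Spib, an ETS family factor, 2.11 (1.54 to 2.83) and 1.33 (0.768 to 2.14). Ms4a1, which encodes CD20, had ratios of 1.11 (0.962 to 1.27) and 0.889 (0.717 to 1.09). Of 14 measured antigen presentation and costimulation genes 0 were higher on both days and 1 was lower, the costimulator Cd86, with 91.5 CPM against 219 CPM at day 14 and 102 CPM against 247 CPM at day 0 (0.418, 0.265 to 0.629, and 0.415, 0.227 to 0.698). Cd74, the invariant chain of MHC class II, stood at 0.869 (0.847 to 0.892) and 0.838 (0.810 to 0.868). The antigen presentation and costimulation list summed to 0.860 (0.843 to 0.877) at day 14 and 0.796 (0.775 to 0.817) at day 0. Without plasma marker cells its day 0 value was 0.893. The median cell had 396 UMIs of this list per 10000 in heat shock high and 483 in remaining cells at day 14. At day 0 these medians were 446 and 518. On single days 2 of the 14 were higher and 1 lower at day 14, and 0 were higher and 3 lower at day 0. Higher at day 14 were Ciita, the regulator of MHC class II genes, and the costimulator Icosl. Ciita had 2.58 (1.78 to 3.62) at day 14 and 0.735 (0.335 to 1.40) at day 0. Icosl had 1.67 (1.02 to 2.57) and 1.495 (0.767 to 2.64).

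Lower on both days were 37 genes (1.23% of those tested), against 86 that were higher. Plac8, from the B-1 and memory list, had 672 CPM in heat shock high and 1238 CPM in remaining cells at day 14, and 475 CPM and 1080.0 CPM at day 0. Its ratio was 0.543 (0.464 to 0.632) and 0.440 (0.339 to 0.562). Satb1, a chromatin organiser, stood at 0.525 and 0.407, Cirbp, an RNA-binding protein induced by cold, at 0.610 and 0.544, and Prdx6, a peroxiredoxin, at 0.511 and 0.464. Vps37b, an ESCRT-I subunit, had 251 CPM against 713 CPM at day 14 (0.351, 0.270 to 0.450) and 395 CPM against 846 CPM at day 0 (0.467, 0.350 to 0.610). Fam107b stood at 0.291 and 0.536, Tcp11l2 at 0.357 and 0.453, Cyth1, an exchange factor for ARF GTPases, at 0.453 and 0.351, and Bri3 at 0.470 and 0.521. Ppt1, a lysosomal thioesterase, had 2 UMIs in the day 14 members and 1 in the day 0 members, with ratios of 0.146 (0.0176 to 0.529) and 0.131 (0.00332 to 0.735). Cd44, an adhesion receptor raised on memory cells, had 0 UMIs at day 14, where the interval allows a ratio of up to 0.434, and 1 UMI at day 0.

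Immunoglobulin class was read from the constant region genes. After thinning to 1000 UMIs, Ighm was detected in 78.1% of heat shock high cells (69.0 to 85.6) and 66.6% of remaining cells (65.2 to 68.0) at day 14, and in 64.7% (50.1 to 77.6) and 70.4% (68.8 to 72.0) at day 0. Igha was detected in 2.86% (0.593 to 8.12) and 6.29% (5.60 to 7.04) at day 14, and in 21.6% (11.3 to 35.3) and 18.1% (16.8 to 19.5) at day 0. Of these 4 pairs, only Ighm at day 14 had intervals that did not overlap. Before thinning, Ighm had 14.0 UMIs per 10000 in heat shock high and 13.1 in remaining cells at day 14, and 12.8 and 14.9 at day 0. Igha had 0.381 and 2.47 per 10000 at day 14, and 38.9 and 3.08 at day 0, where the plasma marker pair held 535 of the 563 member UMIs.

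Within the heat shock high cells the days were compared directly. Higher at day 14 were 75 of 2867 genes (2.62%) and lower were 196 (6.84%). Among the remaining cells 8 (0.279%) and 49 (1.71%) of the same genes were past the same limit. Counting error differs between these counts. The levels rest on 251407 (day 14) and 136702 (day 0) UMIs in heat shock high cells, and on 11069346 and 7751163 in remaining cells. Under median-of-ratios scaling the split in heat shock high cells was 105 higher and 145 lower, and without plasma marker cells it was 58 higher and 97 lower. Of the 271 genes called, 13 were called in the same direction in the remaining cells. Counting error alone passes the limit more often with the fewer UMIs of the heat shock high cells. Neither the call counts nor this overlap therefore compares the size of the day difference between the groups. The members number 105 and 51, and with 1 library per day the effects of day, mouse and library cannot be told apart. Jun was among the genes most raised at day 14, with 1794 CPM at day 14 and 702 CPM at day 0 in heat shock high cells, against 80.9 CPM and 99.0 CPM in remaining cells. Klf2 had 3496 CPM at day 14 and 1748 CPM at day 0 in heat shock high cells, against 595 CPM and 880.0 CPM in remaining cells, where the order of the days was the opposite. Gpr18, a G protein-coupled receptor, had 147 CPM at day 14 and 29.3 CPM at day 0, and Nedd9, an adhesion scaffold, 119 CPM and 21.9 CPM.

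The chaperone and immediate early lists went opposite ways between the days. Chaperones stood 0.693 times as high at day 14 as at day 0 in heat shock high cells (0.664 to 0.723), and 0.965 times (0.956 to 0.974) in remaining cells. Immediate early genes stood 1.25 times as high at day 14 (1.18 to 1.31) in heat shock high cells and 0.846 times (0.838 to 0.855) in remaining cells. The homing and quiescence list stood at 1.56 (1.42 to 1.71) and 0.782 (0.769 to 0.794). The interferon γ list was higher at day 14 in both, at 1.46 (1.20 to 1.78) in heat shock high and 1.61 (1.56 to 1.65) in remaining cells. The genes lowest at day 14 relative to day 0 were Ly6c2, Mt1, Glipr1, Pclaf, Loxl2 and Basp1. The plasma marker pair held 57 of 57 Ly6c2 UMIs, 18 of 18 Mt1 UMIs, 25 of 32 Glipr1 UMIs and 16 of 17 Pclaf UMIs of the day 0 members, but 1 of 15 for Loxl2 and 7 of 15 for Basp1.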

How the data were processed

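Counts of UMIs per gene and barcode were deposited by the authors as 1 matrix per library, and the tool, per the file headers, was Cell Ranger 3.0.1. The build was mm10, per the submitters' processing notes. The authors also deposited natural log normalized tables, made with Seurat 3.0 per the submitters' processing notes. Their values equalled ln(1 + 10000 × UMIs / total) within a relative 0.001 at every value compared, and they were used only to take the barcodes that the authors kept.

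Cells needed 1000 UMIs and under 20% from immunoglobulin genes (Igh, Igk, Igl and Jchain). At day 14, 63 barcodes fell under the first limit and 27 under the second, and at day 0, 34 and 24. Total counts were 11840594 UMIs over the day 14 cells and 8241489 over the day 0 cells. UMIs were summed per library over heat shock high and over remaining cells, and levels (CPM) are per 1000000 UMIs after leaving out immunoglobulin and mitochondrially encoded genes. Ratios carry exact conditional 95% intervals, and shares Clopper-Pearson intervals, both for counting error only. A gene was called at a ratio of 1.5 (or its inverse) with the interval clear of 1. Genes needed an expected count of 5 UMIs in the heat shock high cells of each library, and the 3 ranking genes were left out. No doublet caller was run; leaving out cells with over 2 times the median UMIs was an alternative. Computation used Python 3.11.15, numpy 2.4.6, scipy 1.17.1 and pandas 2.3.3, and the ratio code was tested on simulated data.

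The members and gene lists were chosen with earlier results of these data known. Named genes were the 12 highest by lower interval bound and the 12 lowest by upper bound over both days, up to 4 extreme members and the most abundant member of each list, the 6 highest and 6 lowest between the days, and a standing set of heat shock genes; some genes that the rule names are not reported here. Alternatives were the top 1% and 5%, a ranking without Dnajb1, thinning to 1000 UMIs, cells with high mitochondrial shares left out, remaining cells without the 3 genes, median-of-ratios factors, means of per-cell levels, other level filters and a 2-fold limit. Leaving out cells with 5 or more plasma marker UMIs was added after seeing the data.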

Additional observations from a re-analysis of the deposited data

Results flagged for a closer look

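Several results lay on opposite sides of 1 on the 2 days, with each interval clear of 1. The difference between the days was not tested in any of them, since there is 1 library per day. Ccr7, the homing receptor for lymphoid tissue, had a ratio of heat shock high over remaining cells of 1.34 (1.18 to 1.53) at day 14 and 0.799 (0.652 to 0.970) at day 0. Txndc5, a disulfide isomerase of plasma cells, had 0.385 (0.124 to 0.903) at day 14 and 2.05 (1.22 to 3.23) at day 0, where the plasma marker pair held 9 of 19 UMIs. Fmnl1, an actin regulator, had 2.64 (1.46 to 4.44) at day 14 and 0 at day 0, where it had 0 UMIs and the interval reached 0.801. Pclaf, a proliferation gene, had 0 at day 14 (interval up to 0.966) and 8.38 (4.72 to 14.0) at day 0, with 16 of 17 UMIs in the plasma marker pair. The B cell identity list stood at 1.05 and 0.837, the cell cycle list at 0.771 (0.681 to 0.870) and 1.38 (1.22 to 1.55), and the plasma marker list at 0.722 (0.527 to 0.965) and 5.97 (5.24 to 6.79), day 14 and day 0 in each. Of the 285 cell cycle UMIs of the day 0 members 144 lay in the plasma marker pair. Nearly all of these, 141, lay in the member with 12883 UMIs. That cell had 17 plasma marker UMIs and only 0.442% immunoglobulin. Without plasma marker cells the day 0 ratio was 0.890 (0.748 to 1.05), and the median cell had 8.45 cell cycle UMIs per 10000 in heat shock high and 11.6 in remaining cells. The plasma marker list stood at 1.16 and 0.918 without such cells.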

How the results depend on the processing

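No paired analysis was possible because there is 1 library per day and the labels give no replicate numbers. The main values were 86 genes higher and 37 lower on both days, 75 higher and 196 lower at day 14 within heat shock high cells, shares of 2.28% and 1.58% and chaperone sums of 2.18 and 3.04 (day 14 and day 0 in each pair). With the top 1% of cells the shares were 1.22% and 0.681%, the chaperone sums 2.67 and 4.30, and 42 genes were higher and 113 lower at day 14. With the top 5% the shares were 5.61% and 4.12%, the sums 1.68 and 2.06, and 5 genes were lower on both days, of which 1 was among the 37. Thinning to 1000 UMIs gave 37 higher (32 among the 86) and 15 lower on both days, sums of 2.27 and 2.76, and 19 higher and 42 lower at day 14. Without large cells the day 14 sum was 2.33 and 88 genes were lower at day 14. Remaining cells without the 3 genes gave sums of 2.25 and 3.14, median-of-ratios factors 2.36 and 3.20, and means of per-cell levels 2.32 at day 14, with 113 genes higher at day 14. Median-of-ratios scaling moved the median log2 ratio of all genes from -0.13 to -0.01 at day 14. An expected count of 20 gave 29 higher and 22 lower on both days and 39 higher and 73 lower at day 14; no filter gave 301 lower at day 14; a 2-fold limit gave 49 higher and 15 lower on both days and 49 higher at day 14. Without plasma marker cells 97 genes were lower at day 14, and 75 of the 86 higher genes remained. The cause of these changes was not tested beyond how each alternative is built.

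Ratios were followed through the alternatives for the named genes, the chaperone sum and some lists. These were the immediate early, NF-κB feedback, ER folding, plasma marker, B cell identity, homing and quiescence, cell cycle and germinal center lists. Other lists, such as antigen presentation and interferon γ, were followed at most without plasma marker cells. Among followed ratios whose interval excluded 1, those given here changed side. Ratios whose interval included 1 also crossed it and are not listed. The cell cycle list at day 0 was 0.438 with the top 1% of cells, 0.993 after thinning, 0.927 without large cells and 0.890 without plasma marker cells, and the germinal center list 0.878 with the top 1%. With the top 1%, day 0 values were 0.727 for Stmn1, 1.12 for Ccr7 and 0 for Pclaf and Loxl2. With the top 5%, Nolc1 was 1.01 at day 14. Thinning gave 1.07 for the plasma markers and 1.02 for Prdx1 at day 14, and 0.511 for Xbp1, 0.888 for Stmn1, 0 for Pclaf and 0.917 for Basp1 at day 0. Without large cells the plasma markers were 1.14 at day 14 and 0.862 at day 0, with day 0 values of 0 for Ly6c2 and Mt1, 0.433 for Xbp1, 0.523 for Stmn1 and 0.971 for Txn1. Without plasma marker cells these were 1.16 and 0.918, and 0, 0, 0.398, 0.488 and 0.794. Means of per-cell levels gave 0.890 for Xbp1 at day 0. The ranking without Dnajb1, the mitochondrial limit, the remaining cells without the 3 genes and median-of-ratios factors turned no direction. Depth limits rare genes such as Bag3 and Hsf1.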
